A study of Mus musculus with 4 samples.

Results

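Guanylate-binding proteins (GBPs) and immunity-related GTPases (IRGs) are the main GTPases that interferon gamma induces in mouse cells, and Irf1 encodes a transcription factor that helps to switch them on. The genes described here are the rows of the deposited expression table with the symbols Gbp2, Gbp3, Gbp5, Gbp6, Gbp7, Iigp1, Irgm1, Irgm2, Igtp and Irf1. All 10 of 10 symbols were found, among 24394 genes. The study sequenced polyadenylated RNA from 4 mice, namely WT-139 and WT-140, with the genotype Usp25+/+, and KO-826 and KO-850, with the genotype Usp25-/-. All 4 carried the C57BL/6 background, were 8 weeks old, and had been given 2.5% dextran sulfate sodium (DSS) for 5 days and plain water for 2 days. DSS injures the gut lining and is a common model of colitis. No group without DSS was analysed here, so every value is a level after the treatment. How the Usp25 allele was made, and in which cells it is lost, is not given in the sources used here. Usp25 encodes a ubiquitin-specific protease, and the comparison asks how transcript levels after DSS differ with and without it.

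Interferon gamma binds its receptor and activates the kinases JAK1 and JAK2, and the signal reaches the gamma-activated site (GAS) of target genes such as Irf1. IRF1 protein then binds interferon-stimulated response elements (ISRE) in a later wave of targets, to which most GBPs and IRGs belong. The GTPases gather on membranes of vacuoles that hold bacteria or parasites, damage them, and help inflammasomes sense what they release. In the intestine, interferon gamma from T cells and innate lymphoid cells induces them in epithelium and macrophages.

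The DNA before these genes held letter matches to both kinds of element. As described further on, 10 of 10 members had their highest level in mouse WT-139 and their lowest in mouse KO-826. Of the 12103 genes tested, 29.7% were highest in WT-139 and 24.3% lowest in KO-826. Whether the matches bear on these levels was not tested. RefSeq start sites of GRCm38.p6 were available for 8 of the 10 members, not for Gbp6 and Iigp1. The 250 bases upstream of each start were searched on both strands for GAS, as TTCNNNGAA, and for ISRE, as GAAA, any 2 bases and GAAA again. The ISRE reads TTTC, any 2 bases and TTTC when it lies on the other strand, and each window printed was found once, letter for letter, on its chromosome in the mm9 build. Capitals mark the matches. The 5 windows shown are those of the regulator, of the GBP with the highest level and the GBP with the largest ratio between the Usp25+/+ mice, and of a pair of neighbouring IRGs.
Irf1, chr11:53583266-53583515, plus strand: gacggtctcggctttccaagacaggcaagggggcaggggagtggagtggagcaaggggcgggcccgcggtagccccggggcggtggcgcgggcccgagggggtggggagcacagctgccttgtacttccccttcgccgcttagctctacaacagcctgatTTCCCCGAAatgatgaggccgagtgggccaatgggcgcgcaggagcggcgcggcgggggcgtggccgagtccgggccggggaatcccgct
Gbp2, chr3:142283377-142283626, plus strand: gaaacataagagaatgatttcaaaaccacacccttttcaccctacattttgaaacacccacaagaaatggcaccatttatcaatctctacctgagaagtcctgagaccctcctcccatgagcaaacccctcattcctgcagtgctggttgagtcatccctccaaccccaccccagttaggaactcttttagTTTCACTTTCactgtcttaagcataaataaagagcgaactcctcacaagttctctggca
Gbp5, chr3:142159648-142159897, plus strand: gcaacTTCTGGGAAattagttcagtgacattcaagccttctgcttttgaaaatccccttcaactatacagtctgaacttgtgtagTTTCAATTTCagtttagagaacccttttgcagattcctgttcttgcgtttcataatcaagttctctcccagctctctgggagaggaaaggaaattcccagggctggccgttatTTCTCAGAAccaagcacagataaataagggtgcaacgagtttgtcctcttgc
Igtp, chr11:58012808-58013057, plus strand: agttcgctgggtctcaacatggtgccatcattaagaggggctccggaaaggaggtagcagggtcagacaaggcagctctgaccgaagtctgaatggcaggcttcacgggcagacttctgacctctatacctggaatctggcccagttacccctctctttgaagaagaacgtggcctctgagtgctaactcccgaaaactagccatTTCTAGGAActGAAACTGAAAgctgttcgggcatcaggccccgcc
Irgm2, chr11:58028229-58028478, plus strand: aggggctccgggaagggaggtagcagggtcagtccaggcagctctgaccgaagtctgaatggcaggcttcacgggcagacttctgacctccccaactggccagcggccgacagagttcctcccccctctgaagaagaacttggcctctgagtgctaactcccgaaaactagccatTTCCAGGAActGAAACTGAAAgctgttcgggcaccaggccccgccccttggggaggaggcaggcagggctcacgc

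The Irf1 window held a GAS match 90 to 82 bases before the start and no ISRE match. Irf1 has another RefSeq start, whose window held neither motif. The Gbp2 window held an ISRE match 59 to 50 bases before the start and no GAS match. In the Gbp5 window there were 2 GAS matches and 1 ISRE match. Igtp and Irgm2 each had a GAS match followed after 2 bases by an ISRE match. Further upstream the windows of this pair share a run of 55 identical bases. Of the windows not shown, Gbp7 held 2 GAS matches and 1 ISRE match, Irgm1 2 overlapping ISRE matches, and the windows of the 2 Gbp3 starts 2 overlapping ISRE matches and none.

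GAS matches were present for 5 of 8 members and ISRE matches for 7 of 8, and both kinds stood together for 4, namely Gbp5, Gbp7, Igtp and Irgm2. Counted in the same way, over any start of a gene, 8.13% of 27018 genes held a GAS match, 3.46% an ISRE match and 0.400% both in 1 window. Of all 32841 windows of this length, these shares were 7.02%, 2.98% and 0.332%. A match is only a run of letters, and binding was not measured. Start sites also differ between annotations. The Gencode start in mm9 lay 61 bases before the RefSeq start for Gbp2 and 34 bases before it for Gbp5, and 51 bases after it for Irgm2. For Irgm1 it lay 263 bases before. By the Gencode starts, the ISRE matches of Irgm1 and Gbp2 lie inside the transcripts. The 2 starts agreed for Igtp and for the Irf1 start shown.

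**Figure D1:**
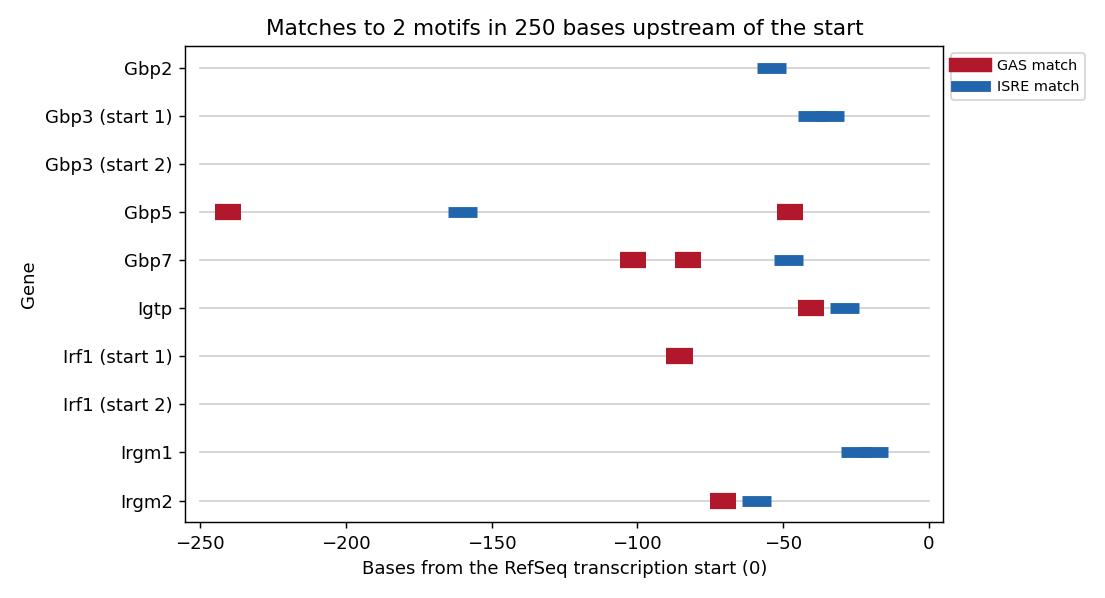
Matches to GAS and ISRE in the 250 bases before each RefSeq start, with bases from the start on the horizontal axis and 1 line for each start of the 8 members with a window. Irf1 has a GAS match only, Gbp2, Gbp3 and Irgm1 have ISRE matches only, and Gbp5, Gbp7, Igtp and Irgm2 have both.

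Levels are given as FPKM, which divides a gene's fragments by its transcript length and the library's mapped total, so they can be compared between genes. Where 4 levels follow one another, the order is WT-139, WT-140, then KO-826, KO-850. Usp25, the targeted gene, matched the genotype labels with 38.5, 16.6, 2.65 and 1.71 FPKM and a log2 difference of -3.07 ± 0.47 (limma adjusted p = 0.968). The label colon was not borne out by its markers. Of 14 genes of colon epithelium in the table, 3 were tested, 2 to 5 reached 1 FPKM in any 1 mouse, and Aqp8, Zg16 and Cdx1 were listed at 0 in all 4. With all 4 mice, the 3 tested were higher in Usp25-/- mice without overlap, opposite to the members, and 0 were called. Over the table, 2304 of 12103 tested genes were higher without overlap. The 3 genes had a median log2 difference of 2.31 with or without mouse WT-139. Of these, Lgals4, a galectin gene, stood at 7.04, 9.83, 70.6 and 28.8 FPKM. Krt20, a keratin gene, stood at 4.31, 3.11, 52.4 and 7.35 FPKM, and Guca2a, the guanylin gene, at 0.341, 0.868, 16.6 and 3.89 FPKM. The part of such cells in the members' levels was not tested. All 10 genes of lung epithelium reached 1 FPKM in every mouse, among them Sftpc, a surfactant gene, at 339 to 2596 FPKM. Library WT-139 stood apart from the rest, with a correlation over tested genes of 0.876 to 0.890 with the others, which correlated at 0.933 to 0.968 with each other. That describes genes, which are not independent replicates. It also had the fewest genes listed at 0, 3862 against 7175 to 8813. Depth in reads is not part of an FPKM table.

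Irf1 was the most abundant member in 3 of the 4 mice and second to Gbp2 in mouse WT-139. Its level was 242 FPKM in WT-139, 78.6 in WT-140, 30.6 in KO-826, 46.0 in KO-850. The groups did not overlap, and the higher Usp25+/+ mouse was 3.08 times the lower one. Group means were 160 ± 115 FPKM in Usp25+/+ and 38.3 ± 10.9 FPKM in Usp25-/- (SD, n = 2 each). As log2(FPKM + 1), the scale of all differences here, Usp25-/- minus Usp25+/+ was -1.85 ± 0.60 (SE), with a limma Benjamini-Hochberg adjusted p of 0.968.

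Gbp2, whose protein gathers on vacuoles of intracellular parasites and bacteria, was the most abundant GTPase of the group. It reached 554 FPKM in WT-139, with 24.8 in WT-140, 12.7 in KO-826, 18.7 in KO-850. The libraries other than WT-139 thus lay between 12.7 and 24.8 FPKM. Gbp5, known to promote assembly of the NLRP3 inflammasome, had the largest ratio between the Usp25+/+ mice of all members. Its levels were 120, 4.44, 2.83 and 3.40 FPKM. Mouse WT-139 was 22.4 times mouse WT-140 for Gbp2 and 26.9 times for Gbp5, although both carry the same genotype label. For both genes the Usp25-/- mice were below both Usp25+/+ mice, by log2 differences of -2.86 ± 1.41 and -2.64 ± 1.41, neither past limma's adjusted threshold (adjusted p = 0.968 each).

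Gbp3, Gbp6 and Gbp7 followed the same order of mice and lay below Gbp2 in each of them. Gbp3 was the least variable of the GBPs, at 65.4, 11.2, 8.05 and 8.81 FPKM. Gbp7 stood at 47.4, 6.22, 3.02 and 4.84 FPKM. Gbp6 stood at 37.8, 2.58, 1.78 and 2.51 FPKM, so mouse WT-140 was only 1.03 times mouse KO-850. Their log2 differences were -1.60 ± 0.80 for Gbp3, -1.95 ± 0.91 for Gbp7 and -1.92 ± 1.10 for Gbp6. In mm9, Gbp5 (142159864 to 142185308), Gbp7 (142193302 to 142213047), Gbp3 (142223016 to 142236173) and Gbp2 (142283566 to 142300972) lie in a row on the plus strand of chromosome 3. Gbp6 (105699723 to 105722718) lies on the minus strand of chromosome 5 beside other GBPs. GBPs of a cluster are close copies, and how the authors assigned reads that fit several of them is not given in the sources used here, so the split between copies is uncertain.

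The IRGs comprise regulators that sit on the cell's own membranes, encoded by Irgm1, Irgm2 and Igtp, and effectors that load onto vacuoles, such as the product of Iigp1. Irgm1 was the most abundant of these 4 in every mouse, with 125 FPKM in WT-139, 13.6 in WT-140, 6.40 in KO-826, 14.0 in KO-850. It was the single member whose genotype groups overlapped, since mouse KO-850 lay just above mouse WT-140. Igtp stood at 87.6, 12.0, 6.02 and 10.3 FPKM. Irgm2 stood at 22.2, 5.04, 2.07 and 3.60 FPKM. For both, the Usp25-/- mice lay below the Usp25+/+ mice, and mouse WT-140 was 1.17 times mouse KO-850 for Igtp and 1.40 times for Irgm2. Iigp1 stood at 35.4, 4.96, 1.57 and 4.84 FPKM, and its Usp25-/- mice differed 3.09-fold from each other, the most of any member.

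Log2 differences of the IRGs were -2.03 ± 1.05 for Irgm1, -1.93 ± 0.92 for Igtp, -1.66 ± 0.68 for Irgm2 and -1.93 ± 0.93 for Iigp1 (SE). In mm9, Irgm1 (48675470 to 48685185) lies on the minus strand of chromosome 11. Igtp (58013058 to 58021093) and Irgm2 (58028530 to 58036282) are neighbours on its plus strand, and Irf1 (53583516 to 53591876) lies on the same chromosome. Iigp1 is on chromosome 18.

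**Figure D2:**
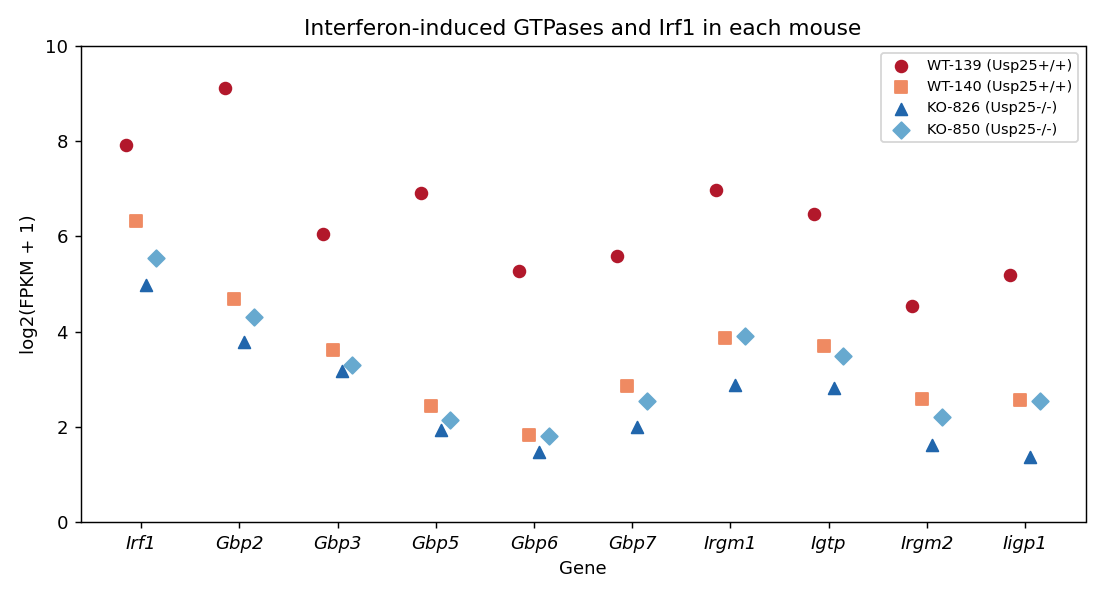
Levels of the 10 members by gene (horizontal axis), each mouse being 1 point at its log2(FPKM + 1) (vertical axis). Mouse WT-139 is highest and mouse KO-826 lowest for each gene, and Gbp2 spans 12.7 to 554 FPKM.

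Between genotypes, 10 of 10 members had a lower mean log2 value in Usp25-/- mice, with a median log2 difference of -1.93 and a range from -2.86 for Gbp2 to -1.60 for Gbp3. Over the 12103 genes tested, 46.4% were lower and the median difference was 0.03. The groups did not overlap for 9 of 10 members, all but Irgm1, against 14.7% of tested genes lower without overlap. When each library was rescaled to the same FPKM total, this held for 7 of 10 members, as Gbp6 and Iigp1 then overlapped too, against 14.4% of tested genes. Limma called 0 of 10 members and 0% of tested genes, 0 of 12103, at an adjusted p of 0.05. At an unadjusted p under 0.05 it had 400 genes, of which 1 was a member, Irf1. Its 95% interval for the log2 difference ran from -3.37 to -0.33, while the interval of Gbp2 ran from -6.43 to 0.70. The members move together, so their counts do not add up as independent evidence, and the smallest p that exact permutation of these 4 mice can give for any 1 gene is p = 0.333.

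The spread inside the Usp25+/+ group was wider than the distance between its lower mouse and the Usp25-/- mice. On the log2 scale, the gap between mice WT-139 and WT-140 exceeded both gaps from mouse WT-140 to the Usp25-/- mice for 10 of 10 members, as it did for 53.7% of tested genes. As a ratio of FPKM values, mouse WT-139 was 3.08 (Irf1) to 26.9 times (Gbp5) mouse WT-140, with a median of 7.46. Mouse WT-140 was 1.39 to 3.16 times mouse KO-826, with a median of 2.03, and 0.977 to 1.71 times mouse KO-850, with a median of 1.28. The order WT-139, WT-140, KO-850, KO-826 was found for 9 of 10 members and for 6.21% of tested genes. Mouse KO-850 exceeded mouse KO-826 for 10 of 10 members, where 51.4% of tested genes did so.

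Without mouse WT-139, all 10 members were still lower in Usp25-/- mice, by a smaller amount. The median log2 difference was then -0.56, with a range from -1.05 for Irf1 to -0.20 for Gbp6, and 51.5% of 11717 tested genes were lower. Mouse WT-140, now the lone Usp25+/+ mouse and assumed to vary like the others, lay above both Usp25-/- mice for 9 of 10 members and for 37.2% of tested genes. Irf1 then stood at -1.05 ± 0.33 (SE, limma adjusted p = 0.758), and 0% of tested genes were called. Without mouse WT-140, limma called 6 of 10 members and 1.38% of 11793 tested genes. Those 6 were Gbp2, Gbp3, Gbp5, Gbp6, Gbp7 and Igtp, with log2 differences from -5.08 for Gbp2 to -2.82 for Gbp3 and adjusted p from 0.0240 to 0.0476. The other 4 members, Irf1, Irgm1, Irgm2 and Iigp1, had adjusted p between 0.0518 and 0.0857 there. These calls rest on mouse WT-139 alone in its group.

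**Figure D3:**
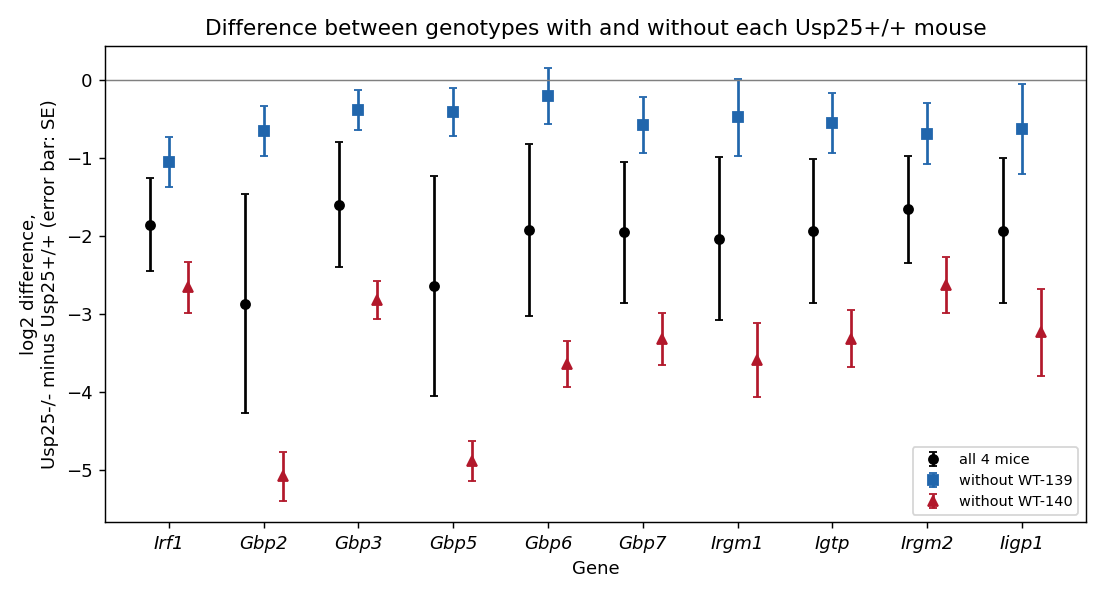
Log2 difference of each member, Usp25-/- minus Usp25+/+, on the vertical axis with SE bars from limma, for all 4 mice and without either Usp25+/+ mouse. The values for Gbp2 run from -0.65 without mouse WT-139 to -5.08 without mouse WT-140.

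Members did not scale by a common factor between mice. Gbp2 made up 67.2% of the summed FPKM of the 5 GBPs in mouse WT-139 against 50.3% in WT-140, 44.8% in KO-826, 48.8% in KO-850. Gbp5 had 14.5% in mouse WT-139 and 8.89% to 9.95% in the others. Gbp3 was the reverse, with 7.94%, 22.8%, 28.4% and 23.0%. Mouse WT-140 thus resembled the Usp25-/- mice in this makeup more than it resembled its own group. The IRGs kept a more even makeup, with Irgm1 at 46.4% in mouse WT-139 and 38.3% to 42.7% in the others, and Igtp at 31.5% to 37.5% over all 4.

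The summed GBPs were 3.04 times the summed IRGs in WT-139, 1.38 times in WT-140, 1.77 times in KO-826 and 1.17 times in KO-850. Relative to Irf1, the 9 GTPases together came to 4.53 times its FPKM in WT-139, 1.08 times in WT-140, 1.45 times in KO-826 and 1.54 times in KO-850. On this ratio the Usp25+/+ mice stood at both ends and the Usp25-/- mice between them. Set against all tested genes of the same library, the median member lay at the 92.1 percentile in WT-139, with 52.1 for WT-140, 34.0 for KO-826 and 44.5 for KO-850. In mouse WT-139 even the lowest member, Irgm2, was at the 76.2 percentile, whereas Irf1 stayed at or above the 81.6 percentile in every mouse.

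**Figure D4:**
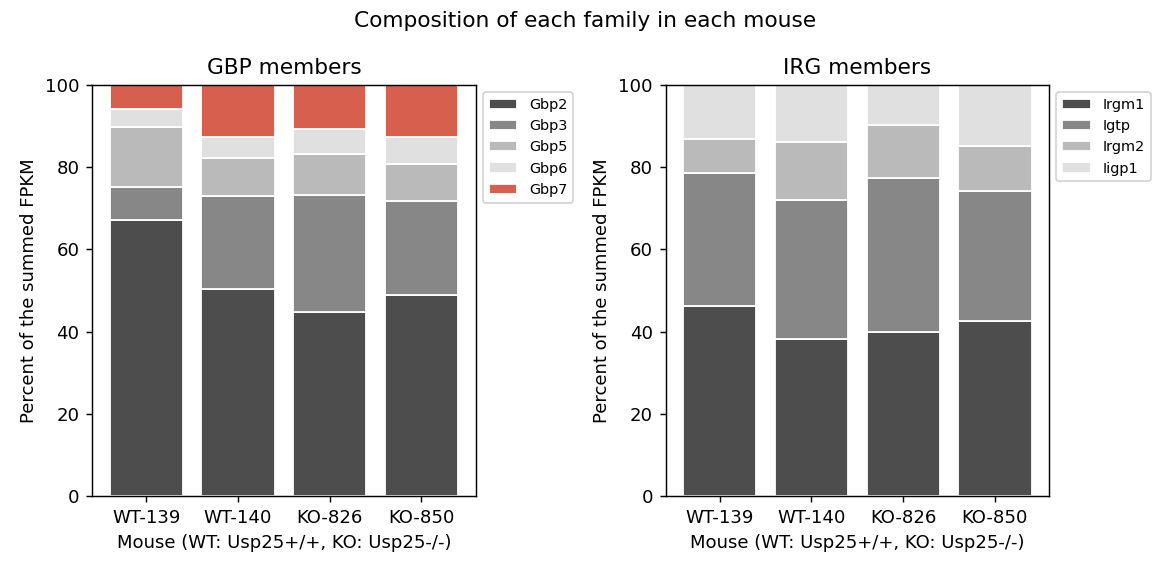
Share of each gene in the summed FPKM of the 5 GBP members and of the 4 IRG members, in percent on the vertical axis, with 1 bar for each mouse. Gbp2 takes 67.2% in mouse WT-139 and 44.8% to 50.3% in the other libraries.

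The other listed genes of both families had their highest level in the same mouse, WT-139, except Gbp8, Irgq and Irgc1. Of 7 symbols listed for other GBPs, which hold Gbp2b under both of its names, 6 were in the table and 3 were tested. All 3 were lower in Usp25-/- and 0 called, with a median log2 difference of -1.47 that became -0.65 without mouse WT-139. Gbp4 stood at 14.9, 1.95, 0.665 and 1.03 FPKM. Gbp8 departed from this, at 7.63, 7.77, 3.46 and 7.76 FPKM. Gbp2b, named Gbp1 in older annotation and lying between Gbp3 and Gbp2, was listed at 0 in 3 libraries and at 11.8 FPKM in mouse WT-139, and was picked after its values were seen.

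Of 12 symbols listed for other IRGs, a list that leaves out Ifi47, 11 were in the table and 9 were tested. Of these, 8 were lower and 1 higher, 0 called, with a median log2 difference of -1.16. Without mouse WT-139 this median was -0.59, with 7 of 8 lower. The effector genes Tgtp1 and Tgtp2 stood at 50.2 and 46.3 FPKM in mouse WT-139. Both are near-identical copies and lay between 0.653 and 3.73 FPKM in the other libraries. Gm12250 stood at 27.3, 1.05, 0.533 and 1.01 FPKM. The listed symbol that was not found, Irgb10, is another name of Gm12250, an IRG. The mm9 annotation used here labels Gm12250 a pseudogene, and that label was not checked. Among the very large interferon-inducible GTPases, 3 of 3 tested genes had lower mean log2 values, 0 called, with a median difference of -0.33. Without mouse WT-139 only 1 of 3 was lower and the median was 0.06. Gvin1, one of them, was highest in mouse KO-850, at 15.2 FPKM.

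Upstream of the members, transcripts of interferons were scarce. Of 11 genes for interferons and the cytokines that raise interferon gamma, 3 were tested, 2 lower and 1 higher, 0 called. Ifng, the interferon gamma gene, did not pass the filter and was chosen after its values were seen. Its level was 8.36 FPKM in WT-139 and 0.456 in WT-140, while KO-826 and KO-850 list it at 0. The interferon beta gene Ifnb1, also outside the rule for named genes, did not exceed 0.464 FPKM in any mouse. Il18, a cytokine that stimulates interferon gamma production, was lowest in mouse WT-139, at 107 FPKM against 221 to 264 in the others. Il12b was highest in WT-139, at 2.56 FPKM against 0.665 to 1.23, and Il27 was highest in WT-140, at 2.20 FPKM. Il12a did not pass the filter and was also picked after its values were seen. It stood at 19.9 FPKM in WT-139 and did not exceed 0.247 FPKM in the others.

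Receptor and JAK-STAT genes had differences nearer to 0 than the members. Of 9 tested, 8 were lower and 1 higher, 0 called, with a median log2 difference of -0.58 that became -0.02 without mouse WT-139. The receptor chain gene Ifngr1 stood at 87.1, 83.9, 83.7 and 69.7 FPKM, and Ifngr2 at 41.4, 33.1, 42.7 and 38.4 FPKM. WT-139 thus did not stand out for either chain of the interferon gamma receptor as it did for the members. It was highest for Jak1, at 66.4, 35.4, 32.7 and 37.3 FPKM, and for Ifnar2, at 57.9, 32.5, 31.1 and 38.0 FPKM. The median over the 9 genes was also highest in WT-139, at 57.9 FPKM against 11.7 to 16.3 in the others.

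Of 9 tested transcription factors of the IRF family and Batf2, 7 were lower and 2 higher, 0 called, with a median log2 difference of -0.97 that became -0.19 without mouse WT-139. Irf8, a factor of myeloid cells, stood at 28.7, 22.3, 9.39 and 16.2 FPKM, without overlap of the genotypes. Irf2, which competes with IRF1 for the same sites, stood at 35.7, 15.2, 11.1 and 11.8 FPKM. Irf3, active through phosphorylation rather than induction, was lowest in mouse WT-139, at 13.7 FPKM against 21.3 to 21.7 in the others. Irf9, like Irf8 and Irf2, was highest in mouse WT-139, at 44.4, 12.4, 7.20 and 14.0 FPKM. The order of mice seen for Irf1 was thus shared by neither Irf3 nor Irf9.

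Other textbook targets of interferon gamma and IRF1 had lower mean log2 values in 16 of 16 tested cases, 0 called, with a median of -1.04. Without mouse WT-139 this was 13 of 16, with a median of -0.44. Cxcl10, a chemokine for activated T cells, stood at 465, 52.9, 25.4 and 29.5 FPKM. B2m, the light chain of MHC class I, was not highest in WT-139, with 2448, 2851, 1741 and 2431 FPKM. Antiviral genes of the type I interferon response were lower in 17 of 17 tested cases, 0 called, with a median of -1.15. Without mouse WT-139 only 10 of 17 were lower and the median was -0.10, whereas 10 of 10 members were lower with a median of -0.56. Isg15, a ubiquitin-like modifier, had 154 FPKM in WT-139 and 14.6 to 15.4 FPKM in the remaining libraries.

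Machinery that acts with the GTPases after they are made had smaller median differences. Ubiquitin-like conjugation proteins of autophagy place IRGs and GBPs on vacuoles, and of 10 genes tested 7 were lower and 3 higher, 0 called, with a median log2 difference of -0.15. Map1lc3b stood at 223, 167, 186 and 176 FPKM, and the genotypes overlapped for 10 of 10 of these genes. Of 11 inflammasome genes, 9 were lower and 2 higher, 0 called, with a median of -0.41 that became -0.22 without mouse WT-139. Il1b stood at 7682, 594, 1965 and 760 FPKM, and Nlrp3 at 352, 35.9, 56.0 and 34.6 FPKM. For both, mouse WT-140 lay below mouse KO-826, unlike for the members. Casp4, the sensor of cytosolic lipopolysaccharide that GBPs assist, stood at 135, 21.9, 14.8 and 18.5 FPKM. Gsdmd, the pore-forming protein it cleaves, stood at 45.2, 32.7, 46.2 and 36.4 FPKM.

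**Figure D5:**
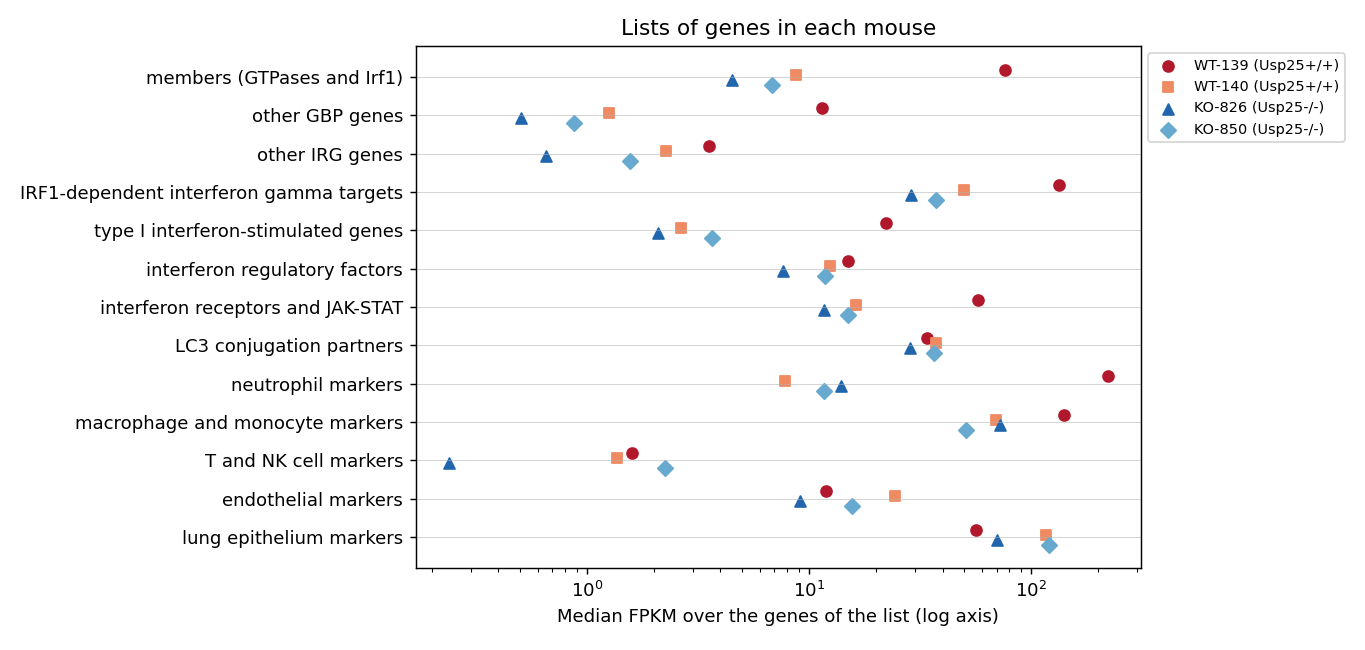
Median FPKM over the genes of each list on a log horizontal axis, each mouse being 1 point. The members have a median of 76.5 FPKM in mouse WT-139 and 4.52 to 8.73 in the other libraries, and the neutrophil list has 222 against 7.80 to 14.0.

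The genes whose pattern over the 4 mice lay nearest to the members' mean pattern were Rtp4, Ifit2, Aoah, Ntng2, Ifi47, St3gal6, Parp14 and Chil1. Nearness is the Euclidean distance between centred log2 values, which was 0.10 for Rtp4 and 0.34 for Chil1. With 4 mice, of which 1 is far from the rest, it carries no test. Rtp4, an interferon-induced gene, stood at 70.1, 7.83, 4.14 and 5.99 FPKM. Ifi47, which encodes another IRG and was in none of the lists, stood at 143, 15.1, 9.96 and 15.7 FPKM. Aoah encodes an enzyme that inactivates lipopolysaccharide, Chil1 a chitinase-like protein and Parp14 an ADP-ribosyltransferase. Among the members, the distance from their own mean ran from 0.18 for Gbp7 and 0.19 for Igtp to 1.33 for Gbp2. Irf1 lay 0.97 away, and its nearest genes were 4933416M07Rik, 5031414D18Rik, Nlrc5, Rps6ka2 and Mir222. Of these, Nlrc5 is the activator of MHC class I genes, with 16.1, 2.93, 0.930 and 1.99 FPKM.

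The summed neutrophil markers were highest in mouse WT-139, as the members were. The summed macrophage, lung epithelium, colon epithelium, B cell and gut muscle genes were lowest in that mouse. All 11 tested neutrophil markers had lower mean log2 values in Usp25-/- mice, and their groups overlapped for each. Summed over 13 neutrophil genes, the levels were 42461, 776, 2144 and 1249 FPKM. Without mouse WT-139, 9 of 10 tested neutrophil genes were higher in Usp25-/- mice, while the members were lower. Mpo and Elane, granule genes of neutrophil precursors, did not exceed 0.648 FPKM.

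Macrophage and monocyte genes summed to 23125, 49609, 42507 and 40336 FPKM, with 11 of 11 detected at 1 FPKM or more in each. Their median over the 11 genes was highest in WT-139 all the same, at 142 FPKM against 50.8 to 72.5. Lyz2 alone held 12613, 38922, 31444 and 32571 FPKM of the sums. The T and NK cell list includes Ifng, at 8.36 FPKM in WT-139 and at most 0.456 in the others. Its 13 genes summed to 26.8, 20.3, 7.96 and 31.8 FPKM, with 8, 7, 3 and 8 at 1 FPKM or more. Mouse KO-826, lowest for each member, was also lowest for this sum, with 5 of 13 genes listed at 0. The same mouse was lowest for the 6 endothelial genes, at 57.7 FPKM against 75.8 to 158. Without mouse WT-139, 6 of 6 endothelial genes were lower in Usp25-/- mice without overlap, against 37.2% of tested genes. Their median log2 difference was then -0.92, further from 0 than the -0.56 of the members. The part of these cell types in the members' levels was not tested. In bulk tissue, fewer cells of a type and less RNA per cell cannot be told apart.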

How the data were processed

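RNA was sequenced from tissue labelled colon of 4 mice, 2 in each genotype, and genotypes were taken from the labels. The deposited table holds FPKM values with 1 column for each mouse. Bowtie 0.12.2 and mm9 are named in the submitters' processing notes. For the FPKM step, the tool, annotation, strandedness, filters and handling of reads with several matches are not given in the sources. Read totals are unknown, which precludes counting intervals. Low values of 2494 genes with 1 exon gave a rough relative depth, with mouse WT-140 as 1. It was 1.25 for WT-139, 0.792 for KO-826 and 0.742 for KO-850, and no test used it. It rests on the most frequent value in each library, which covered 1.98% to 3.36% of the values above 0. Mouse KO-826 nevertheless listed fewer genes at 0 than mouse WT-140, 7175 against 8813.

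Symbols turned into dates (27 of 24421) were left out. Genes at 1 FPKM or more in at least 2 mice (12103) were tested as log2(FPKM + 1), which shrinks the differences of genes with low values, by limma 3.58.1 in R 4.3.3. The test was moderated, with a mean-variance trend, two-sided and adjusted by Benjamini-Hochberg over all tested genes, with a threshold of 0.05. Limma was tested on simulated data in which every gene had the same spread, smaller than that of the members' median. The SD of that median within groups was 1.54 on the log2 scale. The simulation therefore does not show how limma performs for the members. No litter, batch or pairing is recorded. The p-values reflect only how these 4 mice vary. Lists are described by counts and medians, with no set test. Upstream windows come from the RefSeq promoter table of GRCm38.p6, and gene positions from Gencode for mm9. Python 3.11.15, pandas 2.3.3 and matplotlib 3.10.9 were used for the rest.

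The members and all lists were chosen with earlier results of these data known. Named genes are the members, Usp25, up to 4 tested genes with the highest mean FPKM in each list, and the 8 and 5 genes nearest in pattern to the members' mean and to Irf1. The text marks other genes as picked after seeing their values, which also holds for Mpo, Elane, Aqp8, Zg16 and Cdx1. As alternatives, the pseudocount, filter, scaling and variance model were varied and each mouse was left out. The values of 1 gene are not reported here.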

Additional observations from a re-analysis of the deposited data

How the results depend on the processing

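Direction was kept for 10 of 10 members, or for the 7 of 7 members that passed a filter of 5 FPKM, under all 12 alternatives run. These were pseudocounts of 0.1 and 0.5, no filter, a filter of 5 FPKM, scaling to a common total or by median of ratios, limma without trend or with a robust prior, and leaving out each mouse. Leaving out a mouse moved the number of genes called over the table between 0 and 163 and the number of members called between 0 and 6. Both higher counts came without mouse WT-140, where mouse WT-139 was the only Usp25+/+ mouse. The median log2 difference over the members ran from -3.32 without mouse WT-140 to -0.56 without mouse WT-139, and from -2.13 to -1.93 under the alternatives that kept all 4 mice. Scaling by median of ratios set the median of all tested genes at 0.01, against 0.03. The depth is unknown, so the precision of low values, such as those of Gbp6 in 3 libraries, could not be given. No paired analysis was possible because the labels give the mice no shared numbers.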
